A study of Citrullus lanatus with 6 samples.

Results

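Closely spaced ClNAC56 sites were peaks called in both distinct peak lists of the series whose summit lay at most 10000 bp from another such summit. ClNAC56 is a NAC transcription factor of watermelon (Citrullus lanatus). The study used DNA affinity purification sequencing (DAP-seq) of genomic DNA from leaves, with 3 samples mixed with ClNAC56 protein made in vitro. The 3 control samples were mixed with MBP, the maltose-binding protein, in its place. The labels give no cultivar, plant age or treatment. They also tie the peak lists, named T2 and T3, neither to the ClNAC56 nor to the MBP samples. The lists are read here as peaks of ClNAC56 against MBP, because the series is about ClNAC56 binding and MBP is its control. Sheet T1 was row for row the same as T3 in all 3288 rows. Positions are those of list T3. Of its 3288 peaks, 2487 lay on the 11 assembled chromosomes and overlapped a T2 peak by at least 1 bp. Among these shared peaks, 371 (14.9%, 95% Wilson interval 13.6 to 16.4) were closely spaced and 2116 were isolated. Members of a group are not independent of each other, so this interval is too narrow.

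NAC proteins are a family of plant transcription factors that carry a conserved DNA-binding NAC domain at their N-terminus and bind DNA as dimers. They are known for roles in senescence, stress responses, cell wall formation and fruit ripening. In DAP-seq the DNA is naked. Nearby peaks thus record sequences near each other that the protein can bind in vitro, without nucleosomes or other proteins of the cell. Whether both are bound at once is not shown by them. Stretches with several sites for one factor are a known feature of many regulatory regions. Which genes, and which sequences, lie at the sites described here was not analysed.

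The values of a peak are those the authors deposited. Pileup is the scaled number of fragments over the summit, and fold enrichment is that pileup over the local background of the peak caller. All pileups of a list were whole multiples of 1 step, 0.224 in T2 and 0.245 in T3, within 0.0051, so the whole multiple is given below as a number of fragments. Over all peaks this number ranged from 51 to 6782 in T2 and from 47 to 6376 in T3. Because no list belongs to a named library, no difference below has an error between libraries and none was tested. Intervals of fragment ratios cover counting error only. The other intervals treat peaks or pairs as independent draws, which members of a group are not.

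Small groups made up the whole set. The 371 peaks fell into 176 groups, in which each summit lay at most 10000 bp from the next, and 157 of these groups (89.2%) were pairs. The remaining 19 groups held 3 peaks, 57 in all, and no group held more. Closely spaced peaks occurred on every chromosome. They were 6.51% of the shared peaks on chromosome 2 (14 of 215) and 19.8% on chromosome 4 (37 of 187), with a mean of 14.95% ± 3.68 (SD over 11 chromosomes). Chromosome 9 held the most, 52 peaks in 25 groups, or 1.38 per Mb, against 0.370 per Mb on chromosome 2, where the density of shared peaks was also the lowest (5.68 per Mb). The closely spaced share did not follow this density throughout. It was 14.0% on chromosome 3, with 5.88 shared peaks per Mb, and 11.1% on chromosome 5, with 7.56. Groups of 3 were found on 10 chromosomes, and chromosome 3 held 4 of the 19.

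Within a group, neighbouring summits lay a median of 5308 bp apart (interquartile range 3130 to 7232) over the 195 neighbouring pairs. The least distance was 732 bp, and the least gap between facing peak edges was 325 bp. These are distances between called peaks, which were at least 299 bp wide in T3. Whether a peak holds several sites was not tested. Distances were spread over the whole range. Each 1000 bp class between 1000 and 10000 bp held from 9 to 27 pairs, the fewest from 7000 to 8000 bp, and 5 pairs lay less than 1000 bp apart. The mean was 21.1 pairs per 1000 bp between 1000 and 10000 bp and 21.2 between 10000 and 20000 bp, so the limit of 10000 bp falls at no step in the spacing. Isolated shared peaks had their nearest shared summit at a median of 56776 bp.

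**Figure D1:**
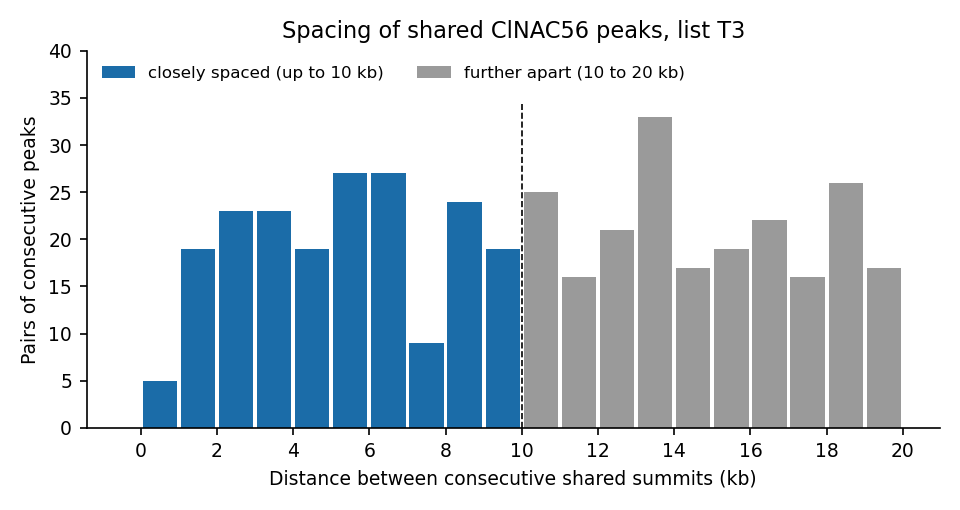
Number of pairs of consecutive shared peaks (vertical axis) by the distance between their summits in kb (horizontal axis), in list T3. Blue bars are closely spaced pairs and grey bars are pairs 10 to 20 kb apart. The bars up to 1 kb hold 5 pairs, and from 1 to 10 kb they run from 9 to 27.

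Neighbours were separate peaks in both lists. No T2 peak overlapped both members of a neighbouring pair, and all 195 pairs had T2 summits within 10000 bp of each other too. The distance in T2 differed from that in T3 by a median of 11 bp, and by at most 100 bp at 188 pairs. The pair with the largest difference, on chromosome 5, had summits 1508 bp apart in T3 and 1976 bp apart in T2.

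The closest pair lay on chromosome 7, with a peak from 29836459 to 29836830 and another from 29837156 to 29837567. Its summits were 732 bp apart in T3 and 679 bp in T2. They held 138 and 94 fragments in T3 and 137 and 88 in T2, so the first summit was the higher in both lists. On chromosome 5 the peaks from 8750297 to 8750778 and from 8751105 to 8751483 had summits 795 bp apart. Their fragment numbers were 316 and 112 in T3 and 296 and 125 in T2. The stronger site thus exceeded its neighbour by a factor of 2.82 (exact 95% interval 2.27 to 3.53) in T3 and of 2.37 (1.91 to 2.94) in T2. On chromosome 11 the peaks from 10707134 to 10707556 and from 10708037 to 10708401, 895 bp apart, were alike, with 126 and 117 fragments in T3 and 143 and 123 in T2. The interval of their ratio held 1 in both lists (0.831 to 1.40 in T3, 0.907 to 1.49 in T2).

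The remaining pairs under 1000 bp were on chromosomes 9 and 1. On chromosome 9, the peaks from 20324074 to 20324441 and from 20325151 to 20325486 held 97 and 54 fragments in T3 and 71 and 62 in T2. Their ratio exceeded counting error in T3 (1.27 to 2.55) but not in T2 (0.803 to 1.64). On chromosome 1 a weak peak from 33750733 to 33751175 preceded a strong one from 33751750 to 33752331. The weak peak had 73 fragments in T3 and 74 in T2, with folds of 2.70 and 2.51. The strong peak, 990 bp away, had 404 and 347 fragments, with folds of 19.3 and 14.97. Sites less than 1000 bp apart were therefore alike at some places and differed several-fold at others.

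At the limit itself, the widest pairs inside were on chromosomes 8 and 2. They lay 9978 bp apart with 84 and 224 T3 fragments, and 9975 bp apart with 117 and 156. The nearest pairs outside lay 10032 bp apart on chromosome 11 with 143 and 105 T3 fragments, and 10043 bp apart on chromosome 10 with 106 and 136.

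Closely spaced sites had nearly the same median strength as isolated ones. The median T3 pileup was 34.3 (95% interval of the median 32.8 to 37.0) in closely spaced peaks and 33.3 (32.6 to 34.1) in isolated peaks. In fragments these medians were 140 and 136 in T3, and 145 and 143 in T2. The median fold enrichment was 6.47 (6.17 to 6.74) against 6.55 (6.42 to 6.67) in T3, and 5.95 against 6.13 in T2. All these intervals overlap, and the direction differs between pileup and fold. Peak widths had medians of 401 bp and 402 bp in T3.

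The upper end of the pileups was higher among closely spaced peaks. Their 95th percentile of T3 fragments was 681 against 382 in isolated peaks, and in T2 it was 586.5 against 352. Pileups of 100 or more occurred at 7.55% of closely spaced peaks (28 of 371, Wilson interval 5.27 to 10.7) and at 4.63% of isolated peaks (98 of 2116, 3.82 to 5.61). At the lower end of the fold scale, a T3 fold under 5 was found at 22.9% (18.9 to 27.5) and 18.5% (16.9 to 20.2). A T3 fold of 10 or more was found at 18.9% (15.2 to 23.2) and 17.0% (15.5 to 18.7). Each of these pairs of intervals overlaps, the first by the least.

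The background moved with these values. It was recovered as (pileup + 1) / fold − 1, on the pileup scale, and had a T3 median of 4.43 (4.04 to 4.52) in closely spaced peaks and 4.001 in isolated peaks, where the upper limit of the interval was 4.10. A background over 10 times the lowest of its list occurred at 22 shared peaks, and 9 of them (40.9%) were closely spaced, against 14.9% of all shared peaks. These 9 were 2.43% of closely spaced peaks (1.28 to 4.55), and the other 13 were 0.614% of isolated peaks (0.359 to 1.05). They lay in 5 groups, in 3 of which every member had a high background. Leaving out the 22 peaks, the 95th percentile of T3 fragments was 460 in closely spaced and 364 in isolated peaks, and the share with a pileup of 100 or more was 5.39% and 4.16% of all peaks of each kind. The part of the background in the remaining difference was not tested.

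**Figure D2:**
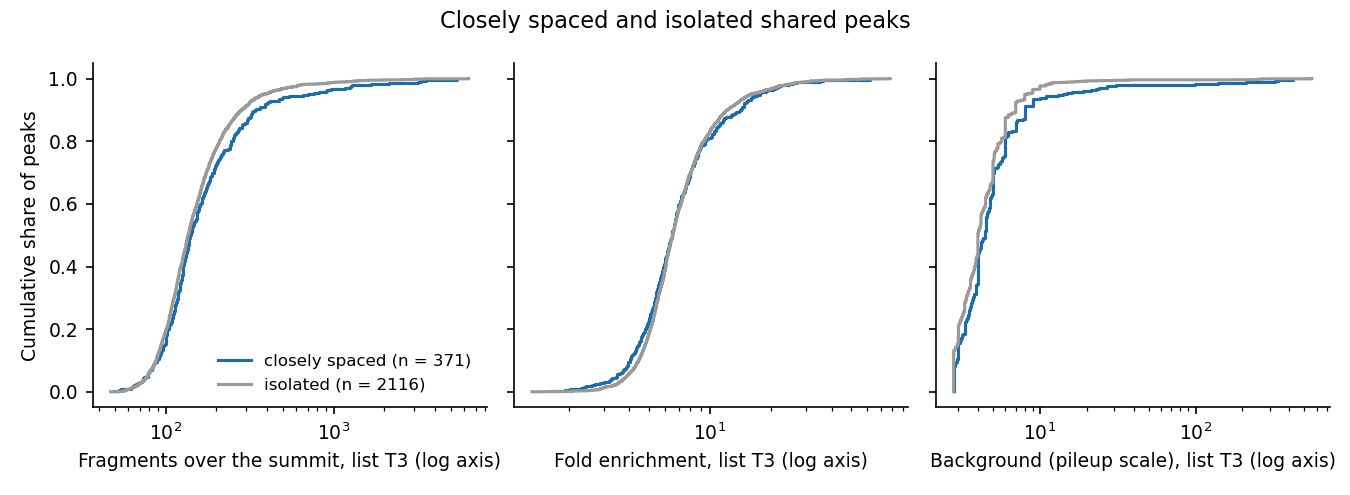
Cumulative share of peaks (vertical axis) by fragments over the summit, fold enrichment and background in list T3 (horizontal log axes), for 371 closely spaced peaks in blue and 2116 isolated peaks in grey. The fold curves nearly coincide, with medians of 6.47 and 6.55, while the upper ends of the fragment and background curves lie further right for closely spaced peaks.

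Rank correlation between the pileups of neighbours was low. Over the 195 neighbouring pairs, each entered in both orders, Spearman's rho of the T3 pileup was 0.0909. With T2 pileups it was 0.121. Neighbours share the library and may share local coverage. Pearson's r of log2 fragments was 0.252 in T3 and 0.338 in T2. Without 7 pairs with a high background in 1 or both members, the other 188 pairs had an r of 0.0358 in T3 and 0.0986 in T2, and a rho of 0.0393 and 0.0684. The fold enrichments of neighbours, which divide by the background, had a rho of -0.0410 in T3 and 0.00647 in T2.

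The background itself was more alike. Its rho was 0.408 over the 195 pairs and 0.578 in the 41 pairs at most 2500 bp apart, and it fell to 0.162 in consecutive peaks 10000 to 20000 bp apart. The windows from which the caller took the background are not stated, and their part in this likeness was not tested. Widths of neighbours had a rho of 0.0190. The T3 to T2 ratio of the folds had a rho of -0.0825, so a site with a relatively high T3 value did not tend to have such a neighbour.

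**Figure D3:**
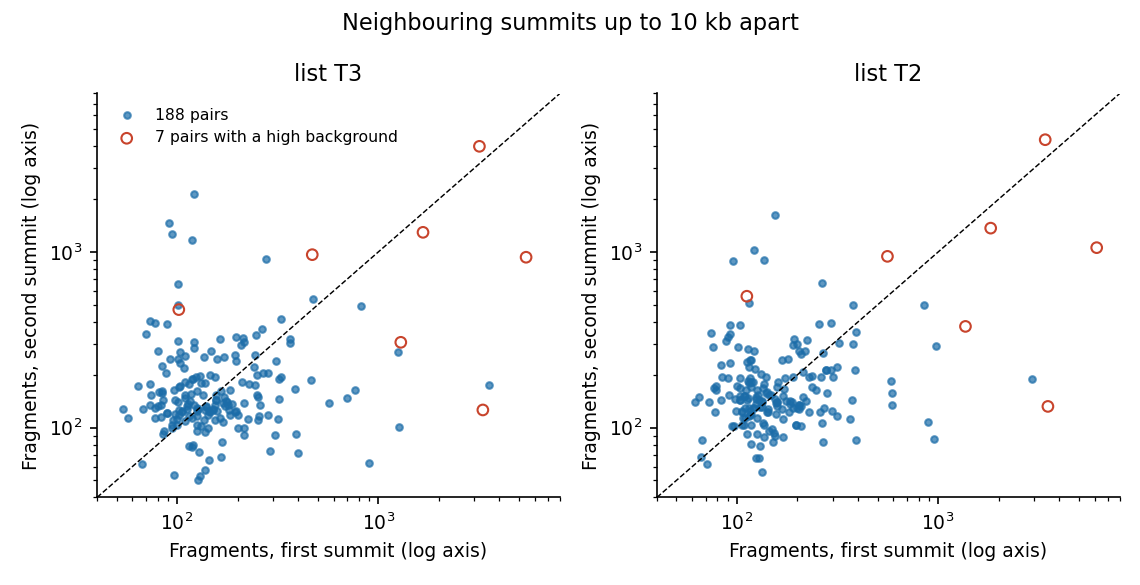
Fragments over the second summit (vertical log axis) against those over the first summit along the chromosome (horizontal log axis) for the 195 neighbouring pairs, in list T3 on the left and T2 on the right. The dashed line marks equal numbers, and red rings are the 7 pairs with a high background. Spearman's rho over all points is 0.0909 in T3 and 0.121 in T2, and Pearson's r of the log2 values is 0.252 and 0.338, or 0.0358 and 0.0986 without the ringed pairs.

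The likeness of neighbours showed no common course with distance in the lists. The higher fragment number of a pair exceeded the lower by a median factor of 1.53 (interquartile range 1.23 to 2.27) in T3. In distance classes the factor was 1.51 up to 2500 bp, 1.52 from 2500 to 5000 bp, 1.56 from 5000 to 7500 bp and 1.46 from 7500 to 10000 bp. Consecutive shared peaks further apart gave 1.49 from 10000 to 20000 bp (212 pairs), 1.52 from 20000 to 50000 bp (395), 1.46 from 50000 to 100000 bp (523) and 1.56 beyond (1151). The rho of fragments in these last 4 classes was 0.149, 0.0845, 0.0584 and -0.0441. In T3 no class within 10000 bp had a rho above the 0.149 found between 10000 and 20000 bp. In T2 the factor was lower in closer classes, with 1.38 up to 2500 bp, 1.39 from 2500 to 5000 bp, 1.51 from 5000 to 7500 bp and 1.504 from 7500 to 10000 bp. It was 1.42 from 10000 to 20000 bp, 1.51 from 20000 to 50000 bp, 1.45 from 50000 to 100000 bp and 1.51 beyond. The rho up to 2500 bp was 0.125 in T3 and 0.171 in T2, over 41 pairs, and 0.0144 and 0.0511 in the 39 of them with low backgrounds. The T2 value between 10000 and 20000 bp was 0.145.

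A factor of at most 1.5 separated 95 of the 195 neighbours (48.7%) in T3, against 46.8% to 53.2% in the 4 classes further apart. In T2 the share was 51.8%, and it ran from 48.9% between 7500 and 10000 bp to 56.1% up to 2500 bp. A factor of 2 or more separated 60 pairs (30.8%) in T3, against 23.6% of pairs 10000 to 20000 bp apart, 26.1% and 25.2% in the next classes and 31.2% beyond 100000 bp. By both shares of T3 fragments, neighbours thus lay within the range of consecutive peaks further apart. By T3 fold, a factor of at most 1.5 separated 47.7% of neighbours, against 52.6% to 59.0% in the 4 classes further apart. A factor of 2 or more separated 27.7%, against 19.8% to 24.8%. For T2 folds these shares were 53.3% against 56.5% to 61.3%, and 23.6% against 14.2% to 20.8%. Taken over all 195 pairs, neighbours were thus less alike by fold than each further class in both lists, a difference that was not tested. It did not hold at every distance. By T3 fold, a factor of at most 1.5 separated 54.1% of the 61 pairs 5000 to 7500 bp apart, against 53.4% from 20000 to 50000 bp. The other classes up to 10000 bp had 39.6% to 48.8%.

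**Figure D4:**
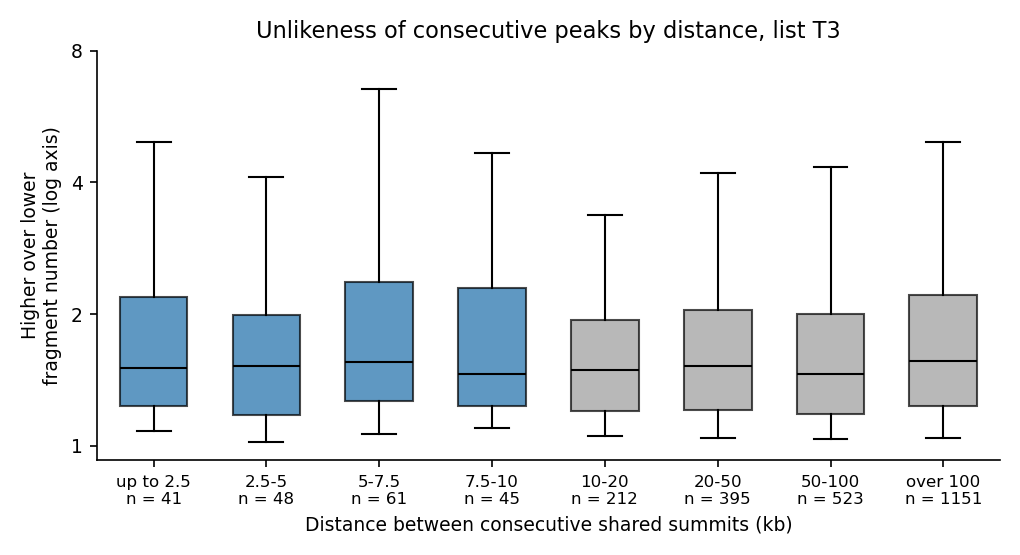
Ratio of the higher to the lower T3 fragment number in consecutive shared peaks (vertical log axis) by the distance of their summits in kb (horizontal axis, with the number of pairs). Boxes show the median and quartiles and whiskers the 5th and 95th percentiles, in blue up to 10 kb and in grey beyond. The T3 medians stay between 1.46 and 1.56 in all 8 classes.

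Differences between neighbours were mostly larger than counting error and had the same order in both lists. The exact 95% interval of the fragment ratio excluded 1 at 143 of 195 pairs (73.3%) in T3 and at 135 (69.2%) in T2. Between 10000 and 20000 bp the T3 share was 67.0%, and beyond 100000 bp it was 70.5%. The order of the neighbours was the same in both lists at 176 pairs (90.3%), with a tie counted as the second summit being the stronger. These include pairs tied in T3 on chromosome 1 (125 and 125 fragments) and chromosome 4 (109 and 109). The difference exceeded counting error in both lists, in the same order, at 122 pairs, and in opposite orders at 0. At each of the 19 pairs without a common order the difference lay within counting error in 1 or both lists. Whether T2 and T3 share reads is not stated, so this is no agreement between separate libraries.

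Both members were strong in more pairs by fragments than by fold. The upper quartile of shared T3 fragments began at 192. Both members reached it in 27 neighbouring pairs, 1 member did so in 65 and neither in 103. By T3 fold, with a quartile at 8.58, these numbers were 12, 74 and 109. Counting each peak once per neighbour, 54 of 119 strong peaks (45.4%) by fragments had a strong neighbour, while 30.2% of closely spaced peaks were strong. Without the high backgrounds it was 44 of 107 (41.1%). By fold it was 24 of 98 (24.5%), while 25.3% of closely spaced peaks were strong. The part of local coverage in the first share was not tested. The 30.2% and 25.3% count each peak once, and no such base share is given for the low-background peaks. Nor is a share of strong neighbours given for consecutive peaks further apart, so none of these shares is set against theirs. Of all 2487 shared peaks, 14.9% were closely spaced. Of the 33 shared peaks with a fold of 20 or more in both lists, 4 were closely spaced, and each belonged to a pair. None of their neighbours reached a fold of 10 in either list.

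The strongest of these 4 lay on chromosome 10 from 34460578 to 34461239, with folds of 61.9 in T3 and 39.6 in T2. Its neighbour 3035 bp away, from 34457724 to 34458078, had folds of 4.22 and 5.03. In fragments the pair had 1456 against 91 in T3, a factor of 16.0 (12.9 to 19.999), and 1032 against 121 in T2, a factor of 8.53 (7.06 to 10.4). The chromosome 7 site from 23667877 to 23668621 had 2145 fragments in T3 and 1618 in T2. Its neighbour from 23659896 to 23660212 had 122 and 155, which gave a factor of 17.6 (14.6 to 21.3) in T3 and 10.4 (8.85 to 12.4) in T2. Here too the weaker summit had the lower number in T3 and the stronger summit the higher one.

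On chromosome 9 the site from 13085035 to 13085781 had 3544 and 2922 fragments in T3 and T2, with folds of 36.2 and 28.5. Its neighbour 5044 bp away, from 13090220 to 13090668, had 175 and 189 fragments, with folds of 9.56 and 8.24. The ratio of their fragments was 20.3 (17.4 to 23.7) in T3 and 15.5 (13.3 to 18.0) in T2. The fourth strong site, on chromosome 4 with its summit at 17028894, had folds of 35.1 and 24.4, and the peak 6743 bp away from 17022013 to 17022585 had folds of 4.31 and 4.49. Since these 4 sites were chosen for their high folds, a weaker neighbour is no finding, and the values describe the pairs only.

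A further unequal pair was on chromosome 4, where peaks from 6522252 to 6522741 and from 6529174 to 6529675 held 902 and 63 T3 fragments, and 950 and 86 in T2. The largest fragment ratio of all, 26.3 (22.0 to 31.7) in T3 and 26.6 (22.4 to 31.9) in T2, was of another kind. It was found on chromosome 4 between a peak from 7079141 to 7079462, with 3313 T3 fragments over a background of 338, and a peak from 7086908 to 7087274 with 126 fragments over 5.001. By fold the order was the other way round, 2.40 against 5.31 in T3 and 2.25 against 5.09 in T2.

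Some groups had a high T3 pileup at every member. Ranked by the T3 pileup of the weakest member, the first group was on chromosome 11, with peaks from 29089305 to 29089763 and from 29094131 to 29094579. They held 3185 and 4001 fragments in T3 and 3408 and 4364 in T2, but over T3 backgrounds of 382 and 424, so that the folds were 2.04 and 2.31. A chromosome 7 group, from 18406647 to 18407058 and from 18415024 to 18415513, was similar, with 5434 and 934 T3 fragments and folds of 4.13 and 1.64. High pileup thus went with high background and low fold in both groups.

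The next groups had backgrounds below 10 times the lowest. On chromosome 1 the peaks from 4981277 to 4981879 and from 4990930 to 4991482 held 474 and 541 fragments in T3 and 377 and 501 in T2. Their folds were 24.6 and 14.8 in T3 and 17.7 and 12.6 in T2, so both sites were strong by either measure. On chromosome 6 the peaks from 6593347 to 6593905 and from 6598732 to 6599327 held 328 and 416 fragments in T3 and 322 and 305 in T2. Their folds were 14.8 and 27.1 in T3 and 13.1 and 18.2 in T2, with the second site the stronger by fold in both lists. Also on chromosome 6, the peaks from 14886833 to 14887218 and from 14893357 to 14893763 held 823 and 491 T3 fragments, with folds of 14.6 and 4.33. Their backgrounds were 12.9 and 27.0, the latter just under that limit.

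Groups of 3 spanned a median of 8211 bp from first to last summit, from 3122 to 14257 bp, and 14 of 19 spanned at most 10000 bp. The strongest member exceeded the weakest by a median factor of 2.37 in T3 fragments, with a range of 1.24 to 13.5. The middle summit was the strongest in 8 groups in T3 and in 7 in T2, and the same member was the strongest in both lists in 18 of 19. Peaks of these groups had a median T3 fold of 6.01 (4.79 to 6.59), against 6.63 (6.27 to 6.92) in pairs. In T3 fragments the medians were 136 (118 to 173) and 142 (134 to 154). Peaks with a high background are included in both, and 2 of the 19 groups of 3 held them.

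The shortest group of 3, on chromosome 11 from 10705052 to 10708401, held 102, 126 and 117 T3 fragments, and 104, 143 and 123 in T2. Its folds of 3.71, 8.40 and 7.82 in T3 set the first site apart, over a background of 5.999 against 2.80 and 2.79. The group on chromosome 5 from 8750297 to 8755543 held 316, 112 and 133 T3 fragments and 296, 125 and 136 in T2, with the strongest site at one end. On chromosome 4, from 24859124 to 24864701, the numbers were 109, 109 and 147 in T3 and 116, 124 and 146 in T2, among the most even of the 5 shortest groups.

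The group on chromosome 9 from 4590696 to 4596770 was the most uneven of the 19. Its middle site held 1265 fragments in T3 and 891 in T2, between sites with 94 and 101 in T3 and 96 and 107 in T2. Folds there were 25.9 in the middle and 4.09 and 4.72 at the sides in T3. On chromosome 1, from 9809361 to 9815836, the middle site was also the strongest, with 64, 173 and 133 fragments in T3 and 90, 191 and 130 in T2.

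**Figure D5:**
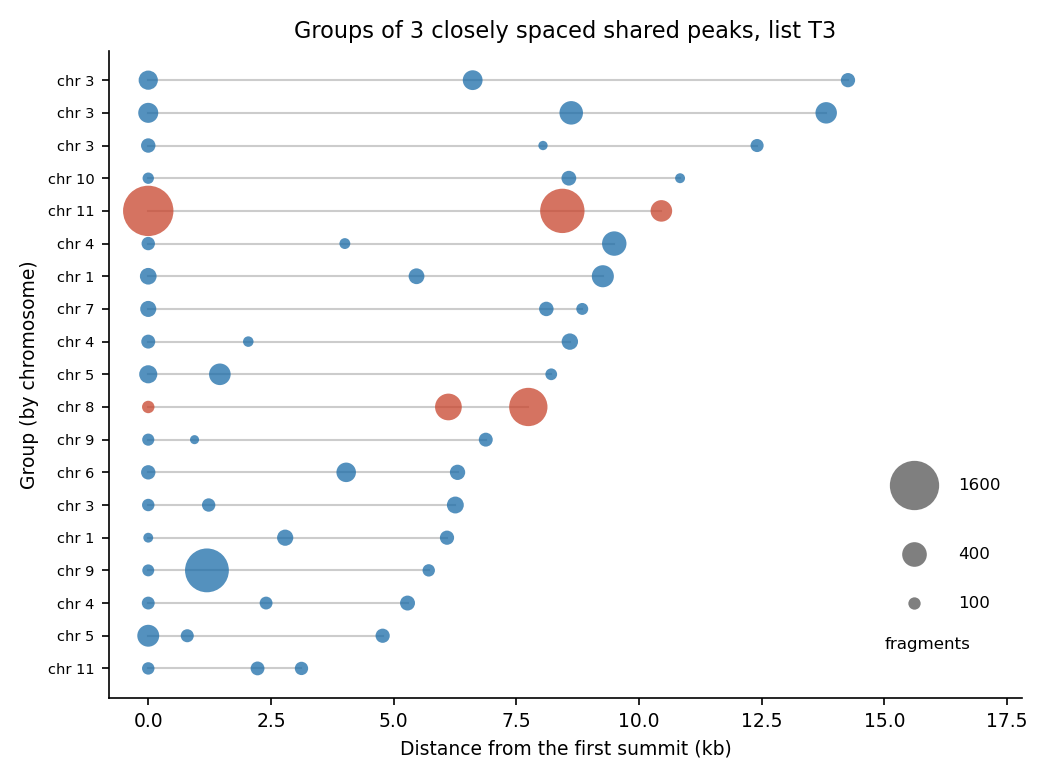
The 19 groups of 3 closely spaced peaks, ordered by span (vertical axis, with the chromosome of each), by distance from the first summit in kb (horizontal axis). The area of a point is proportional to its T3 fragments, and red marks the 2 groups with a high background. Uneven groups, such as that on chromosome 9 with 94, 1265 and 101 fragments, stand beside nearly even ones.

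Along the chromosomes, closely spaced peaks were a smaller share of the shared peaks in the first 20% of chromosome length (11.4%, 64 of 559) and in the central 20% (11.1%, 33 of 298) than in the last 20% (17.4%, 118 of 680) and the 20% before it (18.1%, 92 of 507). Length was taken as the last peak end of both lists. The outer parts together held 49.1% of closely spaced and 49.95% of isolated peaks, and the central part held 8.89% and 12.5%. Peaks found in 1 list were rare near both kinds, with overlapping intervals. A T3-only summit lay within 10000 bp of 3.23% of closely spaced peaks (1.86 to 5.57) and 4.40% of isolated peaks (3.601 to 5.35). For T2-only summits the shares were 2.70% (1.47 to 4.89) and 1.89% (1.39 to 2.56).

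The change in fold between the lists was close in both kinds of shared peak. The T3 fold exceeded the T2 fold at 72.5% of closely spaced peaks (67.8 to 76.8) and 70.3% of isolated peaks (68.3 to 72.2). The median T3 to T2 ratio of folds was 1.08 (1.07 to 1.10) and 1.07 (1.07 to 1.08).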

How the data were processed

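Peak lists on 3 sheets were used. The tools named in the submitters' processing notes are Bowtie2, Picard, MACS2 and bedtools. Their versions, order and settings, and which build was used, are not stated there. Per the file headers, the authors deposited for each peak its position, its pileup (a scaled coverage signal) and its ratio of enrichment, called fold. A column with a damaged header was read as the deposited −log10 q from the MACS2 column order, and was used for 1 filter only. Reads were not analysed and the total depth is unknown. A T3 peak was kept when it lay on an assembled chromosome and overlapped a T2 peak by at least 1 bp; where it overlapped several, the T2 peak with the nearest summit gave its T2 values. Groups are chains of summits each at most 10000 bp from the next. Intervals at 95% are Wilson for shares, binomial order statistics for medians and exact binomial for ratios of fragments; PCR copies are not independent molecules, so these may be too narrow. Correlations are descriptions without p. The neighbour search was tested on simulated data. The members, measures and naming rule were chosen with earlier results of these data known. Named were the closest 5 pairs, the 5 pairs with the largest fragment ratio, the 5 groups with the highest weakest member, the 2 pairs on each side of the limit and up to 5 groups of the largest size. As 19 groups tied, the 5 of shortest span were taken, a choice made after their values were seen. The 4 strong sites with a fold of 20 or more were also chosen after their values were seen. Python 3.11.15, pandas 2.3.3 and scipy 1.17.1 were used.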

Additional observations from a re-analysis of the deposited data

How the results depend on the processing

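The number of closely spaced peaks followed the distance limit, with 172 peaks in 83 groups at 5000 bp and 740 in 333 groups at 20000 bp, where the median nearest distance was 2790 and 9978 bp. A T3 fold of at least 5 left 234 peaks in 115 groups at a median of 5762 bp, as fewer peaks entered. Leaving out list T2, so that all T3 peaks on the chromosomes counted, gave 605 peaks in 286 groups, since more peaks entered. The other 7 settings gave 342 to 467 peaks: reciprocal 50% overlap, summits of the lists within 100 bp, a −log10 q of at least 5, T2 positions, gaps between edges, leaving out list T3, and leaving out high backgrounds, the last added after seeing the data. Spearman's rho of neighbouring pileups had 11 alternatives, 4 of them added after seeing the data, all within its approximate 95% interval of -0.0502 to 0.229. Among the 11 were classes of consecutive peaks further apart, which do not estimate the rho of neighbours again. The lowest, -0.0410, was that of T3 folds, and the highest, 0.149, that of pairs 10000 to 20000 bp apart. For pileups of pairs up to 10000 bp apart, the alternatives ran from 0.0393 (low background) to 0.121 (T2 pileup). The difference of median pileup, 0.980 higher in closely spaced peaks, ran from -1.10 to 0.980 over 6 alternatives. The -1.10 came from the limit of 5000 bp, which also changes the members. Among the 6 was a difference of median T3 fold, -0.0755, which is on another scale. The other pileup settings gave 0.45 to 0.980. The direction is thus not settled. No paired analysis was possible because the lists carry no replicate numbers. Peaks with few fragments have the widest counting error.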
